A study of Mus musculus with 24 samples.

Results

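The comparison described here sets MPP1 libraries against HSC libraries within Mysm1 knockout mice, and takes 6 of the 24 RNA sequencing libraries of the series. Its members were taken from the sample titles: MPP1 KO libraries 1, 2_3 and 4 and HSC KO libraries 1, 2_3 and 4. It asks how far the 2 CD48-negative gates still differ without Mysm1, the histone H2A deubiquitinase encoded by the deleted gene. All cells came from bone marrow of C57BL/6 mice of 8 to 12 weeks and both sexes, and were sorted without lineage antigens or Flt3 and with Kit, CD150 and Sca-1 on their surface. MPP1 cells were CD34-positive and CD48-negative. HSC were negative for both. MPP2 cells, used here only as a level for scale, were positive for both.

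KO mice carried Mysm1 fl/fl and CreERT2 and received tamoxifen at 0.15 mg per gram in 8 injections over 16 days, which removes exon 3 of Mysm1. Het mice carried Mysm1 +/fl and CreERT2 and received the same tamoxifen, so that KO and Het share the recombinase and the drug. Sham mice were Mysm1 fl animals given corn oil only. The promoter that drives CreERT2 is not given in the sources used here. There were 3 KO, 3 Het and 2 Sham libraries for each gate, each from cells pooled over several mice, and a p-value here reads the variation among pools rather than among mice. In bulk RNA of this kind, fewer cells of a type and less RNA per cell cannot be told apart.

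Haematopoietic stem cells in adult marrow are mostly quiescent and self-renew for life. MPP1 cells lie next to them in the hierarchy: they have gained CD34, divide more often and have shorter repopulating capacity, while keeping most of the stem cell programme. Cells that enter the cycle switch on replication genes under E2F factors in S phase and then mitotic genes through the CHR element bound by the DREAM and MuvB complexes. Interferon-inducible GTPases, which attack vacuoles of intracellular pathogens, are transcribed through the ISRE element bound by ISGF3 and through the GAS element, and stem cells are known to express many interferon-stimulated genes without infection.

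Promoters of genes from the 2 groups that run through the results are shown first, as RefSeq GRCm38.p6 windows from 250 bases before to 50 after the annotated start. Mcm3 (chr1:20820263-20820562, minus strand) encodes a subunit of the replicative helicase and Spc25 (chr2:69206164-69206463, minus strand) a subunit of the kinetochore. Capitals mark E2F letters in Mcm3 and the CHR letters in Spc25.

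Mcm3: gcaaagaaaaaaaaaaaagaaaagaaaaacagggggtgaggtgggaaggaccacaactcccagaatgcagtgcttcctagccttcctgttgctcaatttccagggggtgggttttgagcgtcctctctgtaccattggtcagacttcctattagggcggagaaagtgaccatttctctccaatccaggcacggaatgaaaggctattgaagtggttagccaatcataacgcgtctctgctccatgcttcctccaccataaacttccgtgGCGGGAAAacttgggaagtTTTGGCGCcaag

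Spc25: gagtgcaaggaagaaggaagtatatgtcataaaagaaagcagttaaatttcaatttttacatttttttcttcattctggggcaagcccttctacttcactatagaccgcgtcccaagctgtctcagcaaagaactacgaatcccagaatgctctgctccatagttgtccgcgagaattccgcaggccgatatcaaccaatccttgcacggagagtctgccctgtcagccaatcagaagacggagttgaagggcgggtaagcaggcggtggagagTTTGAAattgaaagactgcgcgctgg

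Irgm2 (chr11:58214727-58215026, plus strand) and Igtp (chr11:58199306-58199605, plus strand) encode immunity-related GTPases, and capitals mark a GAS match followed by an ISRE match.

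Irgm2: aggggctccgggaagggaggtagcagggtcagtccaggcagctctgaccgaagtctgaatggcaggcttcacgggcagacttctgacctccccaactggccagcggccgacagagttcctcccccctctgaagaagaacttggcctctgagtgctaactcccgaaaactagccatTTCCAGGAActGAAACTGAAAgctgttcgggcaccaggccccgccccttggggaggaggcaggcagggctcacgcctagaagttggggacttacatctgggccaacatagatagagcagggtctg

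Igtp: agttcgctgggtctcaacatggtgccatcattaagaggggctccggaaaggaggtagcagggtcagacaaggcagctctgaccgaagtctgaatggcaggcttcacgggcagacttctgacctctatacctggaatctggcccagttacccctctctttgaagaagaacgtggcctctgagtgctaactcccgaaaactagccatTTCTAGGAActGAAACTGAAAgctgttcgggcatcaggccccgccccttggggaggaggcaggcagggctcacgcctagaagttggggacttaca

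Motifs were searched on both strands. The E2F letters were TTTCCCGC, TTTGGCGC or TTTCGCGC, and stood in 37.3% of 51 windows of S phase genes (44 of 60 genes matched) against 1.84% of all 32851 windows. The CHR letters TTTGAA stood in 62.5% of 72 windows of G2 and mitosis genes (65 of 77 genes) against 17.9% of all windows. The ISRE letters, GAAA, any 2 or 3 bases and GAAA again, stood in 51.4% of 37 windows of interferon response genes (30 of 41 genes), against 5.99% of all windows. The GAS letters TTCNNNGAA stood in 24.3% of those 37 windows and 8.3% of all windows. A match describes letters in a window and is not evidence of a bound site.

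The 6 KO libraries held 23686835 to 48572975 counts assigned to genes, within 18823971 to 53196624 over all 24 libraries, and 21456 of 23364 genes were tested. Library 1 of each gate detected the fewest genes, 17074 in MPP1 KO and 15740 in HSC KO, against 19126 to 20303 in the other 4 KO libraries. In Het, HSC libraries 1, 2_3 and 4 detected 19279, 15932 and 16894 genes, and MPP1 libraries 19585, 19925 and 20677. Mysm1 (mm9 chr4:94608731-94645791, minus strand) had 76.7, 107 and 119 CPM, the counts scaled to library size, in MPP1 KO and 96.3, 115 and 121 CPM in HSC KO. It had 115, 115 and 118 CPM in MPP1 Het and 129, 138 and 109 CPM in HSC Het. Counts over the whole gene cannot read the loss of exon 3, so they neither show nor contradict the deletion.

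The genes of the sorted proteins followed the gates in part. Cd34 (mm9 chr1:196765015-196787486), the antigen that divides the gates, had 215, 141 and 137 CPM in MPP1 KO, against 61.6, 74.8 and 98.5 CPM in HSC KO. Every MPP1 KO library lay above every HSC KO library, and the log2 difference was 1.07 ± 0.41 (SE). Its 95% interval ran from 0.20 to 1.94, with an edgeR quasi-likelihood p of 0.0195 and an adjusted p of 1. In Het the same difference was 0.82 ± 0.41.

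Cd48, the antigen both gates lack, was low in both but did not overlap. It had 2.74, 2.81 and 1.30 CPM in MPP1 KO and 1.00, 0.568 and 0.310 CPM in HSC KO, while MPP2 KO averaged 42.0 CPM. The log2 difference of MPP1 from HSC was 1.88 ± 0.86 in KO and -0.58 ± 0.84 in Het, and their difference had an unadjusted edgeR p of 0.0568 and an adjusted p of 1. Kit, the stem cell factor receptor, averaged 672 ± 43.6 CPM in MPP1 KO and 750 ± 67.3 CPM in HSC KO (SD, n = 3 each). Slamf1, which encodes CD150, averaged 38.0 ± 2.87 CPM in MPP1 KO and 44.3 ± 9.09 CPM in HSC KO, and Ly6a, which encodes Sca-1, 17.4 ± 1.71 and 21.1 ± 5.11 CPM. The libraries of the 2 gates overlapped for all 3 genes. Flt3 mRNA was present in both, at 23.9 to 25.6 CPM in MPP1 KO and 16.1 to 23.7 CPM in HSC KO, although both gates exclude cells with the surface protein.

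**Figure D1:**
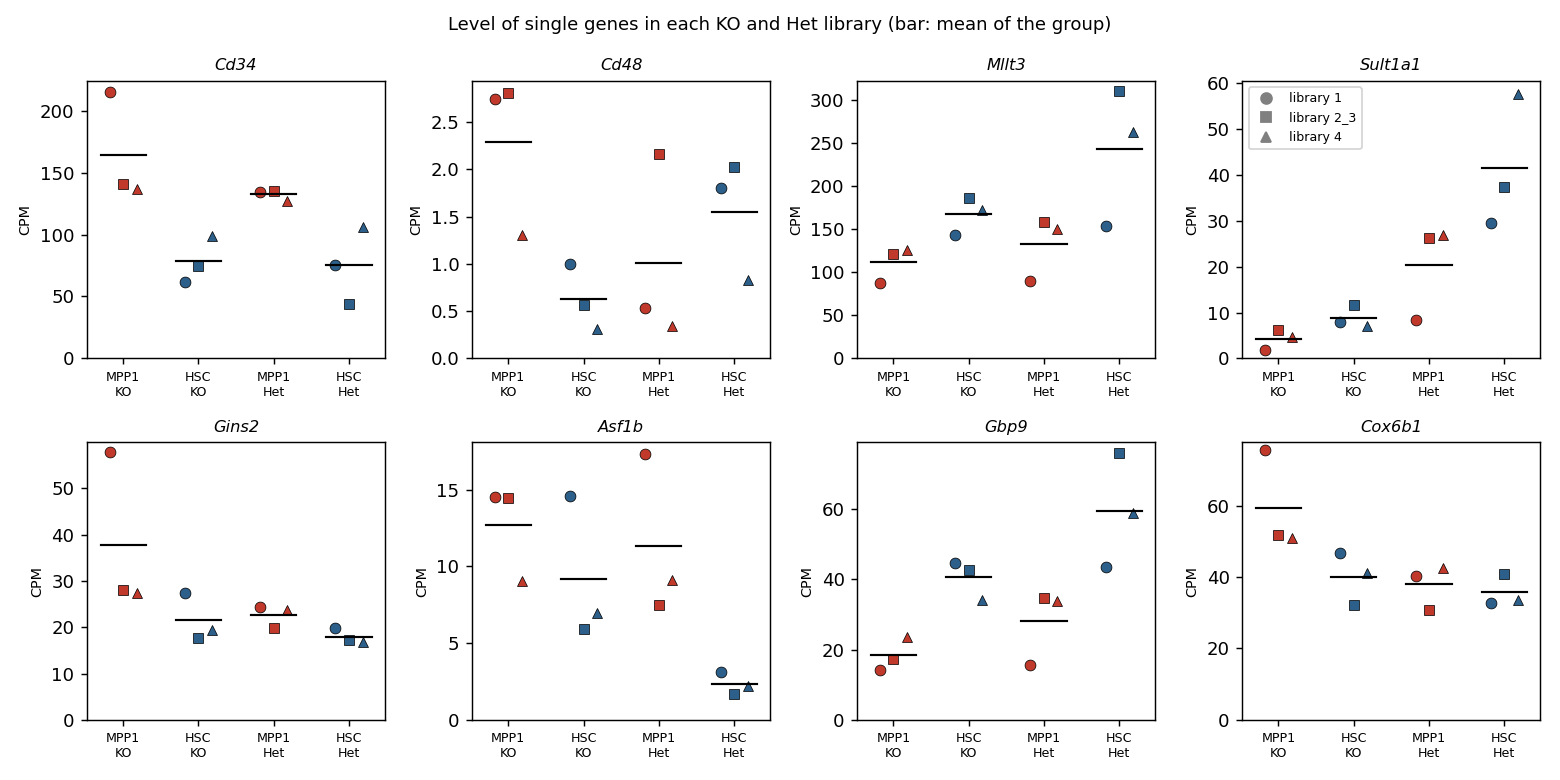
Level of 8 genes in CPM (vertical axis, from 0) in each of the 3 MPP1 KO, HSC KO, MPP1 Het and HSC Het libraries, with a bar at the group mean and a symbol for each library number. Cd34 separates the gates in KO and in Het, Mllt3, Sult1a1 and Gbp9 lie lower in MPP1 KO without overlap, and Asf1b separates the gates in Het but overlaps in KO.

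Across all genes the count of called genes in KO depended on how the library numbers were treated. In the fit of group means over 24 libraries, which does not pair libraries by number, no gene passed an adjusted p of 0.05, that is 0% of 21456, and the smallest adjusted p was 1 in edgeR's quasi-likelihood test. At an unadjusted p under 0.05 there were 520 genes (2.42%), 271 of them higher in MPP1 KO (1.26%) and 249 lower (1.16%). A share of 0.05 would be expected at that level with no difference in any gene, so this count alone shows no gate difference. Limma on log2 CPM called 0 genes, with 456 at an unadjusted p under 0.05. DESeq2 called 11, all with a mean under 5 CPM in both KO gates. In Het, 3 genes passed (0.014%) and 2123 had an unadjusted p under 0.05 (9.89%), 1420 higher in MPP1 Het (6.62%) and 703 lower (3.28%). The test of the difference between the KO and Het gate effects also called 0 genes (0%), with 1044 at an unadjusted p under 0.05 (4.87%), 780 of them lower in KO than in Het (3.64%), and DESeq2 called 23.

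The labels do not say what the numbers 1, 2_3 and 4 mark, but same-numbered KO libraries deviated from their group means together. At 11036 genes with a mean of at least 5 CPM the correlations were 0.618, 0.668 and 0.377, and over all 21456 genes 0.383, 0.356 and 0.0519. In Het they were 0.259, 0.22 and 0.0923 at the same 11036 genes. With the number as a replicate block, edgeR still called 0 genes in KO over 24 libraries, with a smallest adjusted p of 0.311. In the 6 KO libraries alone it called 152 of 16827 genes tested with the block, 124 higher in MPP1 KO and 28 lower, and 0 without it. The 152 held 32 of the 77 G2 and mitosis genes and 12 of the 60 S phase genes. They also held 52 replication-dependent histone genes, of which the main fit tested 63. Among genes described below, Spc25, Mllt3, Gbp9, Gins2, Clspn, Stmn1, Fgd5, Gbp6, Gbp10, Iigp1, Mrpl43, Nmral1, Dnmt3b and Fmn1 were called in that blocked fit. It was chosen after seeing the data. Tests and overlaps below are unpaired unless a sentence names the block or the numbers.

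A count of called genes says little of how large the differences were. Among the 11036 genes with a mean of at least 5 CPM, the log2 difference of MPP1 KO from HSC KO had an SD of 0.293 across genes, with a median SE of 0.214. Its 95% interval lay within 1 log2 unit of 0 for 8943 genes (81%). A difference beyond 2-fold was estimated for 88 genes in KO (0.797%) and for 321 in Het (2.91%). The SD across genes was 0.39 in Het at the same median SE of 0.214. HSC Het libraries 2_3 and 4 detected fewer genes than any MPP1 Het library, and the part of this in the Het values was not tested. Gate differences of KO and Het correlated at r = 0.242 across the 11036 genes, with a slope of 0.182 for KO on Het. Error in the estimates, at a median SE of 0.214 in both, pulls r and the slope toward 0. The slope is therefore not the share of a gate difference that is kept in KO. Genes are not independent replicates, and this is a description.

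Distances between libraries describe the gates without a test per gene. The distance is the root mean square log2 difference over the same 11036 genes. Between gates, the 9 pairs of one MPP1 KO and one HSC KO library lay 0.346 to 0.87 apart, with a median of 0.516. Within MPP1 KO the 3 pairs lay 0.394 to 0.595 apart, and within HSC KO 0.581 to 0.856. The closest KO pair of all was an MPP1 library with an HSC library, and each MPP1 KO library lay nearest, among HSC KO libraries, to the one of its own number, at 0.475, 0.441 and 0.346. In Het the pairs between gates lay 0.471 to 0.977 apart, with a median of 0.624. Those within MPP1 Het lay 0.333 to 0.552 apart and were the closest of Het at the low end, and those within HSC Het lay 0.79 to 0.848 apart.

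**Figure D2:**
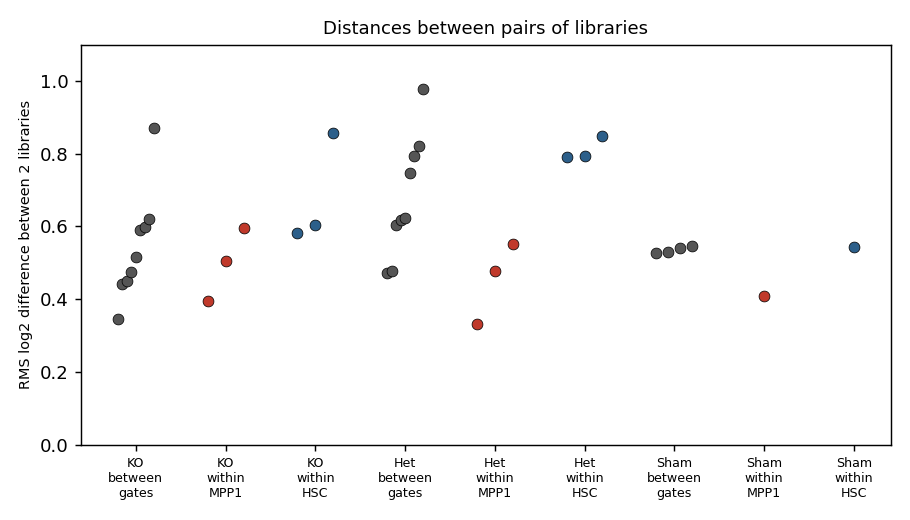
Root mean square log2 difference (vertical axis) for each pair of libraries of one genotype, either of different gates (grey) or within MPP1 (red) or HSC (blue). In KO the 9 pairs between gates span 0.346 to 0.87 and cover the range of the pairs within gates.

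Cell cycle genes ran higher in MPP1 KO than in HSC KO as a group, without any one passing the adjusted test in the unpaired fit. The 77 G2 and mitosis genes were all above 0 in log2 difference, with a median of 0.51, and 59 of the 60 S phase genes were above 0, with a median of 0.39. Over all genes tested 43.4% were above 0 and the median was -0.05. In Het the medians were 1.23 and 0.70, from 76 of 77 and 60 of 60 genes above 0. Those at an unadjusted p under 0.05 and higher in MPP1 numbered 5 of 77 and 8 of 60 in KO, where 1.26% of all genes were, and 68 and 44 in Het, where 6.62% were.

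The libraries themselves showed how these groups were spread. The mean of the G2 and mitosis genes was 6.78, 6.26 and 5.97 log2 CPM in MPP1 KO libraries 1, 2_3 and 4, and 6.37, 5.67 and 5.35 in HSC KO libraries 1, 2_3 and 4. For the S phase genes the means were 6.98, 6.52 and 6.29 log2 CPM in MPP1 KO and 6.60, 6.09 and 5.86 in HSC KO. Library 1 was the highest of each gate, and HSC KO library 1 lay above MPP1 KO libraries 2_3 and 4 in both groups of genes, so that the gates overlapped. Between libraries of the same number, MPP1 KO lay above HSC KO by 0.417, 0.593 and 0.616 for G2 and mitosis and by 0.378, 0.422 and 0.428 for S phase. In Het the G2 and mitosis means overlapped too, with MPP1 Het library 2_3 at 5.10 and HSC Het library 1 at 5.21, while the S phase means did not. The gap between gate means was 0.54 for G2 and mitosis and 0.41 for S phase in KO, 1.18 and 0.81 in Het, and 1.51 and 0.89 in Sham. The MPP1 KO means for G2 and mitosis and S phase, 6.34 and 6.59 log2 CPM, lay above the MPP1 Het means of 5.75 and 6.17. Libraries of MPP1 KO and MPP1 Het overlapped in both groups of genes. The HSC KO means of 5.80 and 6.18 lay above the HSC Het means of 4.57 and 5.36, without overlap of libraries. KO against Het within a gate was not tested. Per gene, none of the 137 genes passed the adjusted test of KO minus Het in the unpaired fit. In the blocked fit of the compared libraries, chosen after seeing the data, 12 did, where 29 of 19466 genes were called. The same block over 24 libraries called 0 genes for KO minus Het. 73 of 77 G2 and mitosis genes and 54 of 60 S phase genes had a smaller gate difference in KO than in Het, and 5 and 2 of these had an unadjusted p under 0.05. Over all genes 42.5% were above 0 in KO minus Het and 3.64% were lower at that p, so the count of 2 of 60 was near the share of all genes.

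These medians leaned on library 1, which also had the fewest genes detected in each gate. Without HSC KO library 1 the KO medians were 0.88 for G2 and mitosis and 0.65 for S phase, and the gates no longer overlapped in the mean of either group. Without MPP1 KO library 1 they were 0.32 and 0.24. Without library 1 of both gates they were 0.64 and 0.49.

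Among S phase genes, Gins2 (mm9 chr8:123102533-123113204), a subunit of the GINS complex of the replicative helicase, had 57.9, 27.9 and 27.4 CPM in MPP1 KO and 27.3, 17.7 and 19.4 CPM in HSC KO. The gates did not overlap, although the nearest pair was 27.4 CPM in MPP1 KO and 27.3 CPM in HSC KO, and the log2 difference was 0.81 ± 0.26 against 0.33 ± 0.26 in Het. Chaf1a, a histone chaperone of the replication fork, had 186, 148 and 164 CPM in MPP1 KO and 142, 120 and 102 CPM in HSC KO. Its log2 difference was 0.46 ± 0.18 in KO and 0.87 ± 0.18 in Het. Mcm3, whose promoter is printed above, had 788, 553 and 454 CPM in MPP1 KO and 573, 442 and 360 CPM in HSC KO, which overlap, with a log2 difference of 0.39 ± 0.18. Clspn, which carries the replication checkpoint signal, had 196, 171 and 156 CPM in MPP1 KO and 161, 111 and 92.3 CPM in HSC KO.

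Among mitotic genes, Stmn1, which destabilises microtubules, had 1060, 729 and 713 CPM in MPP1 KO, against 630, 570 and 530 CPM in HSC KO. Its libraries did not overlap, and the log2 difference was 0.53 ± 0.16 in KO and 0.67 ± 0.16 in Het. Spc25 had 132, 85.0 and 69.7 CPM in MPP1 KO and 70.3, 49.5 and 39.5 CPM in HSC KO, with a log2 difference of 0.85 ± 0.32 against 1.29 in Het. The lowest MPP1 KO library and the highest HSC KO library of Spc25 overlapped narrowly. Mki67, the proliferation antigen, had 1929, 1506 and 1012 CPM in MPP1 KO and 1910, 790 and 643 CPM in HSC KO. The 2 libraries numbered 1 were nearly level, and the log2 difference was 0.41 ± 0.51 in KO and 1.48 ± 0.52 in Het.

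Asf1b and Cenpk were among the genes that passed in Het, and both gave smaller differences in KO. Asf1b, a histone chaperone that supplies new histones, had 14.5, 14.4 and 9.04 CPM in MPP1 KO and 14.6, 5.92 and 6.97 CPM in HSC KO, which overlap. It had 17.3, 7.48 and 9.13 CPM in MPP1 Het and 3.13, 1.70 and 2.21 CPM in HSC Het, which do not. The log2 difference was 0.47 ± 0.33 in KO and 2.28 ± 0.35 in Het, with an edgeR adjusted p of 0.00681 in Het. KO minus Het was -1.81 with a 95% interval of -2.77 to -0.85 and an adjusted p of 0.988. Cenpk, a kinetochore subunit, gave 0.36 ± 0.31 in KO and 1.98 ± 0.32 in Het (edgeR adjusted p 0.0127). Leaving out HSC Het library 2_3 or MPP1 Het library 1 took the Het count to 0. Leaving out HSC Het library 1, HSC Het library 4 or MPP1 Het library 2_3 took it to 101, 15 or 35.

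Replication-dependent histone genes, whose mRNAs lack a poly(A) tail and are read here because the libraries were made by depletion of rRNA, were examined after the values had been seen. Of 63 genes tested, 61 lay above 0 in KO with a median log2 difference of 0.61, and 61 lay above 0 in Het with a median of 1.15. Their mean was 9.02, 8.46 and 8.04 log2 CPM in MPP1 KO and 8.49, 7.86 and 7.28 in HSC KO, again highest in library 1 and overlapping, and the Het means overlapped as well. Among them 3 were higher in MPP1 KO at an unadjusted p under 0.05, where 1.26% of all genes were, and none passed the adjusted test. In Het 57 were higher at that p, where 6.62% of all genes were. Reads of near-identical copies could be split between these genes, so single members are uncertain.

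**Figure D3:**
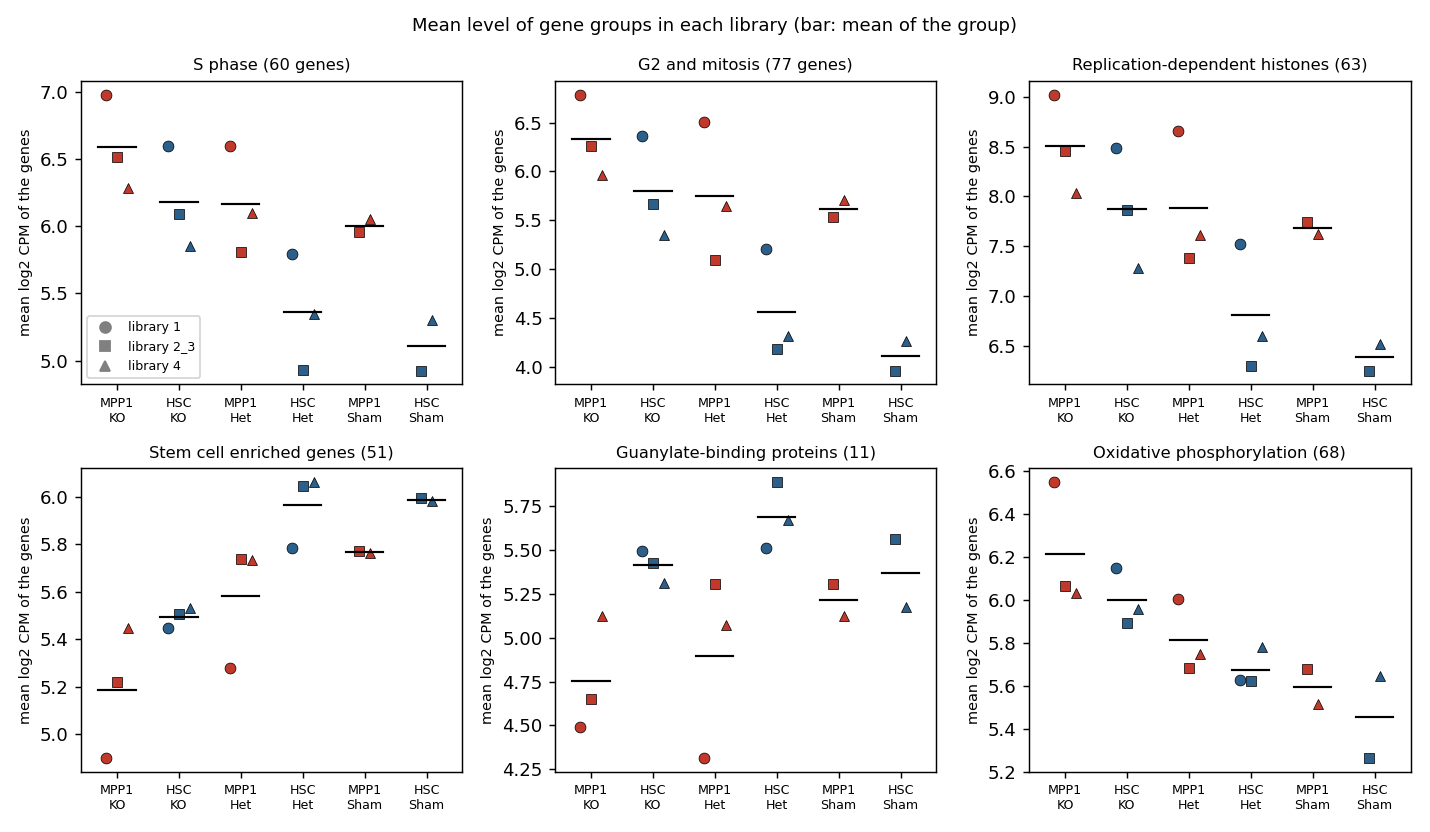
Mean log2 CPM of 6 groups of genes (vertical axis) in each MPP1 and HSC library of KO, Het and Sham, with a bar at the group mean and a symbol for each library number. G2 and mitosis, S phase and histone genes are higher in MPP1 than in HSC on average, all 3 overlap between the KO gates, the first and the histones also between the Het gates, and stem cell enriched genes and guanylate-binding proteins are lower in MPP1 KO without overlap.

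Stem cell enriched genes ran lower in MPP1 KO. Of 51 surface and effector genes tested, 46 had a log2 difference below 0, with a median of -0.25, and in Het 42 were below 0, with a median of -0.34. The mean of the list was 4.90, 5.22 and 5.45 log2 CPM in MPP1 KO and 5.45, 5.51 and 5.53 in HSC KO. The 2 gates did not overlap, although MPP1 KO library 4 at 5.446 was close to HSC KO library 1 at 5.449, and the same order held in Het and in Sham. None of the 51 genes passed the adjusted test in KO, and 1 was lower at an unadjusted p under 0.05, near the 1.16% of all genes, against 12 in Het, where 3.28% of all genes were. Between libraries of the same number the MPP1 KO mean differed by -0.551, -0.29 and -0.084. Without MPP1 KO library 1 the median was -0.10, and without library 1 of both gates -0.13.

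The nearest to the threshold was Sult1a1, a sulfotransferase, with 1.84, 6.28 and 4.68 CPM in MPP1 KO and 7.97, 11.6 and 7.05 CPM in HSC KO. The gates did not overlap, and the log2 difference was -1.06 ± 0.39 in KO and -1.03 ± 0.38 in Het. Fgd5, a guanine nucleotide exchange factor used to mark stem cells, had 19.9, 31.1 and 39.3 CPM in MPP1 KO and 46.0, 56.5 and 46.7 CPM in HSC KO, with log2 differences of -0.73 ± 0.36 in KO and -0.80 ± 0.36 in Het. Procr, the endothelial protein C receptor, had 31.5, 31.2 and 47.1 CPM in MPP1 KO and 40.2, 49.9 and 57.7 CPM in HSC KO, which overlap, and a log2 difference of -0.43 ± 0.43.

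Of 40 stem cell transcription factors, 31 lay below 0 in KO with a median of -0.11 and 32 in Het with a median of -0.32. Without MPP1 KO library 1 the KO median was 0.0092, so it lay near 0 and its direction depended on which libraries were kept. It was -0.049 without HSC KO library 1 and -0.020 without library 1 of both gates. Between libraries numbered 1, 2_3 and 4 the mean of the list differed by -0.266, -0.054 and -0.029 in KO. Mllt3 (mm9 chr4:87415829-87679268), a super elongation complex factor known to maintain stem cells, had 88.0, 122 and 126 CPM in MPP1 KO and 143, 187 and 173 CPM in HSC KO. The gates did not overlap in KO, and the log2 difference was -0.58 ± 0.22 in KO and -0.87 ± 0.22 in Het. Mecom, which encodes EVI1, had 168, 188 and 204 CPM in MPP1 KO and 242, 210 and 211 CPM in HSC KO, a log2 difference of -0.25 ± 0.24, against -0.81 in Het. Meis1, a HOX cofactor, was level, with 427, 435 and 457 CPM in MPP1 KO, 444, 421 and 453 CPM in HSC KO, and a log2 difference of 0.00 ± 0.15. Hlf, a PAR bZIP factor of stem cells, had a log2 difference of -0.09 ± 0.27 in KO and -0.43 in Het.

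Interferon-inducible GTPases lay lower in MPP1 in KO and in Het, and these families were picked after their values had been seen. All 11 guanylate-binding protein genes tested had a log2 difference below 0 in KO, with a median of -0.74, and all 11 in Het, with a median of -0.73. Their mean was 4.49, 4.65 and 5.12 log2 CPM in MPP1 KO and 5.50, 5.43 and 5.32 in HSC KO, with no overlap between gates. Between libraries numbered 1, 2_3 and 4 that mean differed by -1.007, -0.774 and -0.192 in KO, least in library 4. In Sham the mean was 5.31 and 5.12 in MPP1 and 5.57 and 5.18 in HSC, which overlap. Gbp9 (mm9 chr5:105507413-105539311) had 14.1, 17.4 and 23.5 CPM in MPP1 KO and 44.7, 42.8 and 34.3 CPM in HSC KO. Its log2 difference was -1.15 ± 0.32 in KO, with a 95% interval of -1.81 to -0.48, and -1.09 ± 0.32 in Het, and the unadjusted edgeR p in KO was 0.00175 with an adjusted p of 1. Gbp4, Gbp6, Gbp9 and Gbp10 were the 4 with an unadjusted p under 0.05 in KO, where 1.16% of all genes were lower at that p. In Het 5 of the 11 were, where 3.28% of all genes were. Members of this family are closely related copies, and reads could be split between them.

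The immunity-related GTPases lay the same way. Igtp, Iigp1, Irgm1, Irgm2 and Tgtp2 were all 5 below 0 in KO and in Het, with medians of -0.38 and -0.45, and none overlapped between the KO gates. Irgm2 had 78.0, 79.4 and 87.2 CPM in MPP1 KO, against 106, 109 and 108 CPM in HSC KO, a log2 difference of -0.40 ± 0.16. Igtp had 80.9, 81.4 and 92.3 CPM in MPP1 KO, against 119, 99.2 and 114 CPM in HSC KO, a log2 difference of -0.38 ± 0.18. Over all genes, 2.71% were lower in MPP1 KO without overlap and 2.8% higher, against 3.82% lower and 7.41% higher in Het. The 8 Gimap genes, another family of immune GTPases picked after their values had been seen, gave medians of -0.27 in KO and -0.54 in Het. Of these, 6 lay below 0 in KO and 8 in Het, and 1 was lower in MPP1 KO without overlap.

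The wider list of 41 interferon response genes, which holds some of these GTPases, gave smaller values. It had 34 genes below 0 in KO with a median of -0.17, and 35 in Het with a median of -0.36. Without MPP1 KO library 1 the KO median was -0.091. None passed the adjusted test in KO and 2 were lower at an unadjusted p under 0.05, where 1.16% of all genes were, against 16 in Het, where 3.28% were. The means of the list overlapped between the KO gates, and the gap between gate means was -0.20 in KO, -0.31 in Het and -0.033 in Sham. The 10 MHC class II genes, which present antigen, had a median of -0.26 in KO, -0.135 without library 1 of both gates, and -0.48 in Het. H2-Aa had 30, 39.4 and 39.1 CPM in MPP1 KO and 49.0, 43.9 and 45.3 CPM in HSC KO.

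**Figure D4:**
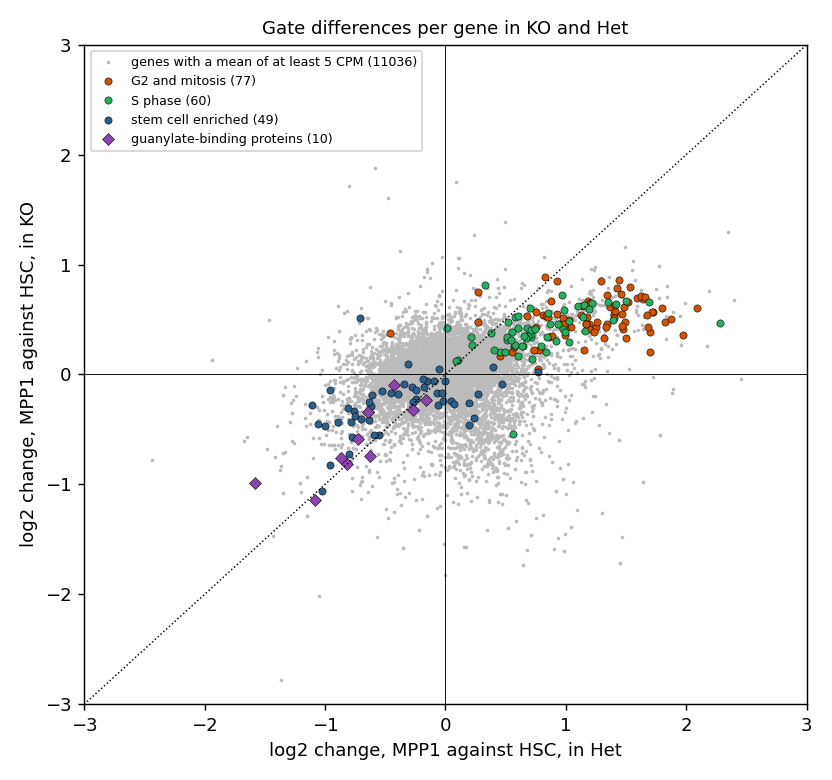
Log2 difference of MPP1 from HSC per gene in KO (vertical axis) and in Het (horizontal axis) for 11036 genes with a mean of at least 5 CPM, with 4 groups of genes in colour and a dotted line of equal values; 2 genes lie outside the axes. Of the G2 and mitosis genes, 73 of 77 have a smaller value in KO than in Het, with medians of 0.51 in KO and 1.23 in Het, and guanylate-binding proteins lie near it.

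Genes of energy metabolism and ribosome production showed small differences. Of 68 nuclear-encoded oxidative phosphorylation genes, 66 lay above 0 in KO with a median of 0.19, and 50 in Het with a median of 0.10. Among them 6 were higher in MPP1 KO at an unadjusted p under 0.05, where 1.26% of all genes were, and none passed the adjusted test. Cox6b1, a subunit of cytochrome c oxidase, had 75.5, 51.7 and 51 CPM in MPP1 KO and 46.7, 32.2 and 41.1 CPM in HSC KO, a log2 difference of 0.57 ± 0.19, against 0.08 ± 0.19 in Het. Uqcr10, a subunit of complex III, had 50.8, 28.7 and 26.3 CPM in MPP1 KO and 22.0, 23.9 and 22.4 CPM in HSC KO, a log2 difference of 0.63 ± 0.23. The means of the list were 6.55, 6.06 and 6.03 log2 CPM in MPP1 KO and 6.15, 5.89 and 5.96 in HSC KO, which overlap, and without MPP1 KO library 1 the median was 0.07.

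Cytosolic ribosomal protein genes, which the series title names, did not separate the KO gates. Their means were 9.24, 8.96 and 9.01 log2 CPM in MPP1 KO and 9.01, 8.95 and 9.11 in HSC KO. The median of 78 genes was 0.046 in KO and -0.14 in Het, and the KO direction was not stable. It was -0.032 in the authors' normalized matrix and -0.021 without library 1 of both gates. None passed the adjusted test, and 0 had an unadjusted p under 0.05. Of 50 genes that build ribosomes, RNA polymerase I subunits included, 47 lay above 0 in KO with a median of 0.16, against 40 in Het with a median of 0.14. The KO median was 0.087 without MPP1 KO library 1 and 0.24 without HSC KO library 1. Nop56, a core protein of box C/D ribonucleoproteins, had 355, 273 and 264 CPM in MPP1 KO and 290, 225 and 205 CPM in HSC KO. Mrpl43, a mitochondrial ribosomal protein picked after its values had been seen, had 112, 66.6 and 72.7 CPM in MPP1 KO and 44.8, 45.2 and 58.9 CPM in HSC KO. Its log2 difference was 0.75 ± 0.21 in KO and 0.85 ± 0.21 in Het.

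Lineage gene lists overlapped between the KO gates in their means. The 30 megakaryocyte and platelet genes had a median of -0.02 in KO and 0.56 in Het, where 13 and 25 of 30 lay above 0. The KO median was 0.116 without HSC KO library 1, 0.069 without MPP1 KO library 1 and 0.171 without library 1 of both gates. Its direction thus depended on which libraries were kept. Pf4, a platelet chemokine, had 316, 288 and 463 CPM in MPP1 KO and 417, 301 and 316 CPM in HSC KO, a log2 difference of 0.05 ± 0.60. In Het it had 364, 71.6 and 166 CPM in MPP1 and 111, 24.4 and 74.1 CPM in HSC, a log2 difference of 1.52. Itga2b, which encodes CD41, gave 0.18 ± 0.46 in KO and 1.28 in Het. The difference between the KO and Het effects had unadjusted edgeR p-values of 0.102 for Pf4 and 0.112 for Itga2b in the unpaired fit. In the blocked edgeR fit of the compared libraries, chosen after seeing the data, both were called. There KO minus Het was -1.44 for Pf4 (adjusted p 0.00203) and -1.09 for Itga2b (adjusted p 0.04). The same block in edgeR over 24 libraries called 0 genes for KO minus Het, with a smallest adjusted p of 0.941. Same-numbered Het libraries also did not meet the criterion of a correlation over 0.1 for every pair. The 2 calls thus depend on the fit chosen. Vwf had 299, 492 and 657 CPM in MPP1 KO and 672, 480 and 578 CPM in HSC KO, which overlap.

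The other lineage lists also overlapped. The median was -0.06 for 25 erythroid genes, -0.33 for 28 granulocyte and monocyte genes and -0.07 for 30 lymphoid genes in KO, and 0 members of any passed the adjusted test. Without MPP1 KO library 1 these medians were 0.021, -0.029 and 0.024, and without library 1 of both gates -0.024, -0.104 and 0.0039. The erythroid and lymphoid directions thus depended on which libraries were kept, and the granulocyte and monocyte value was smaller in both fits. The 39 p53 target genes had a median of 0.04 in KO, 0.0081 without MPP1 KO library 1, and -0.06 in Het, with 0 at an unadjusted p under 0.05 in KO. The means of this list were higher in MPP1 KO without overlap, but only narrowly. The lowest MPP1 KO library was at 3.97 log2 CPM and the highest HSC KO library at 3.968. In Het and in Sham these means overlapped. Cdkn1a, the p21 inhibitor that p53 induces, had 10.4, 5.85 and 6.48 CPM in MPP1 KO and 7.12, 4.22 and 7.90 CPM in HSC KO, which overlap. Of 31 G1 control genes 21 lay above 0 in KO, and Cdkn1c, the p57 inhibitor of quiescent stem cells, had 5.05, 9.71 and 14.8 CPM in MPP1 KO and 9.56, 9.65 and 13 CPM in HSC KO. The 35 immediate early and dissociation stress genes had a median of -0.22 in KO, -0.131 without HSC KO library 1, -0.108 without library 1 of both gates, and -0.23 in Het. Nfkbia, the NF-kB inhibitor among them, had 34.3, 31.0 and 39.6 CPM in MPP1 KO and 40.0, 48.3 and 49.7 CPM in HSC KO, a log2 difference of -0.40 ± 0.16.

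Markers of mature cells that a marrow sort could carry were low and overlapped between the KO gates. The summed level of 12 neutrophil genes was 106 to 213 CPM in MPP1 KO and 73.8 to 270 CPM in HSC KO. That of 11 B cell genes was 28.6 to 41.2 CPM and 23.8 to 80.7 CPM, of 13 T and NK cell genes 28.5 to 38.8 CPM and 21.9 to 49.6 CPM, and of 13 macrophage genes 19.8 to 27.6 CPM and 22.4 to 39.8 CPM. The ranges were 6.72 to 15.6 CPM in MPP1 KO and 10.8 to 18.4 CPM in HSC KO for 5 late erythroid genes, and 100 to 151 CPM and 122 to 180 CPM for 15 stroma and endothelium genes. Of these lists, 5 B cell, 5 T and NK cell, 3 macrophage, 1 late erythroid and 3 stroma genes stayed under 1 CPM in all 6 KO libraries. Ly6g, Ighm, Trbc2, Adgre1, Ahsp and the globin genes were not among the genes tested, which says nothing of their level. In Het the neutrophil sum was 224 to 546 CPM in MPP1 and 167 to 615 CPM in HSC. The mean of the B cell genes was higher in MPP1 Het than in HSC Het without overlap, while the other marker lists overlapped in Het. The part of such cells in the differences above, in KO or in Het, was not tested.

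**Figure D5:**
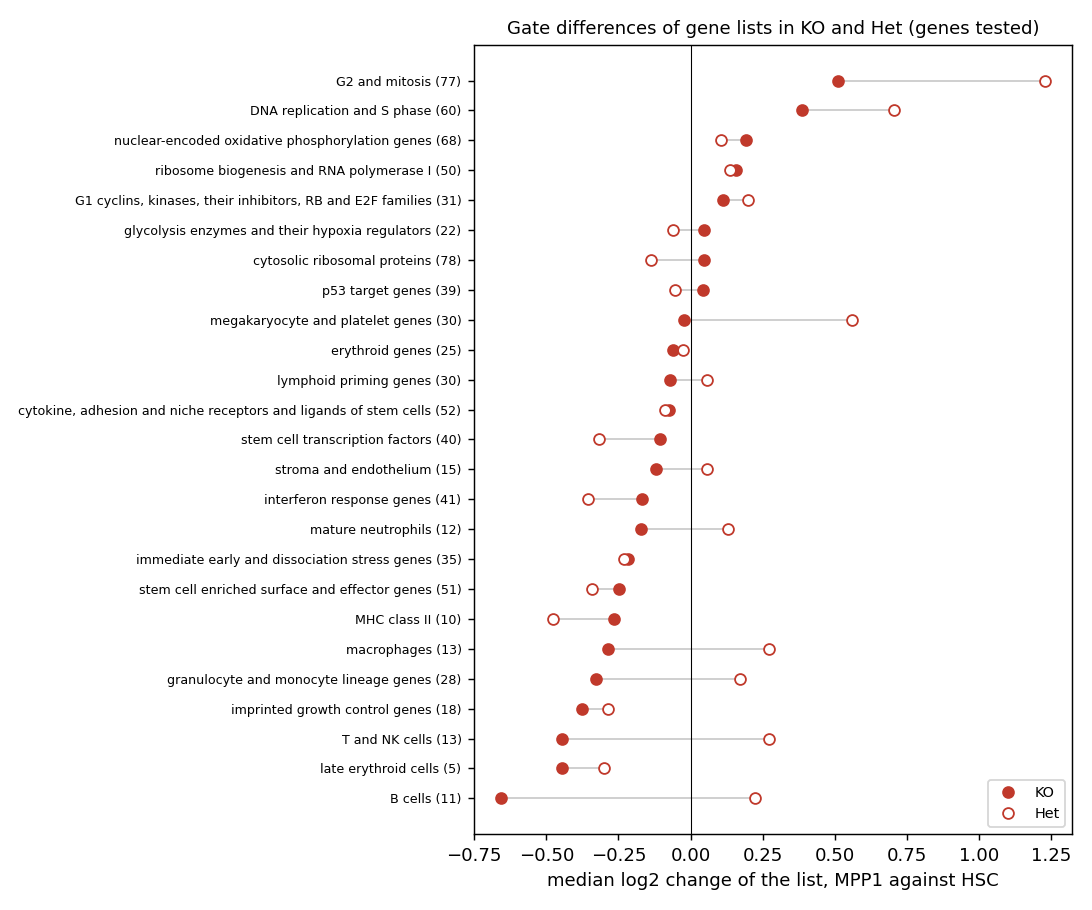
Median log2 difference of MPP1 from HSC (horizontal axis) for each gene list in KO (filled) and Het (open), with the number of genes tested in brackets. G2 and mitosis and S phase genes have the 2 highest KO medians, 0.51 and 0.39, and larger Het medians, 1.23 and 0.70.

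Single genes nearest to the threshold in KO, named after their values had been seen, came from no one list. Nmral1 (mm9 chr16:4710059-4719356), an NADPH sensor, had the smallest unadjusted edgeR p, 0.000898. It had 56.8, 42.5 and 37.7 CPM in MPP1 KO and 30.6, 33.2 and 22.1 CPM in HSC KO, a log2 difference of 0.68 ± 0.18. Dnmt3b, a de novo DNA methyltransferase, had 146, 104 and 99.0 CPM in MPP1 KO and 98.7, 74.4 and 64.6 CPM in HSC KO. Its log2 difference was 0.55 ± 0.16 in KO and 0.30 ± 0.16 in Het. Samd1, a binder of unmethylated CpG islands, had 114, 95.4 and 91.1 CPM in MPP1 KO and 84.3, 62.9 and 70.0 CPM in HSC KO. Bsdc1 had 19.1, 24.9 and 23.9 CPM in MPP1 KO and 30.7, 38.0 and 36.3 CPM in HSC KO. Fmn1, a formin that nucleates actin filaments, was low, with 0.719, 2.44 and 1.87 CPM in MPP1 KO and 4.37, 13.6 and 4.16 CPM in HSC KO, a log2 difference of -2.14 ± 0.64. None of these 5 overlapped between the KO gates, and each had an adjusted p of 1.

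Where KO and Het differed most, the named genes were Rabggta, Prkrip1, Asf1b, Gdap1 and Pdzrn3, none past the adjusted threshold. Prkrip1, a protein that binds double-stranded RNA, had 31.4, 26.6 and 21.0 CPM in MPP1 KO and 32.5, 32.8 and 28.3 CPM in HSC KO. In Het it had 27.8, 27.5 and 30.1 CPM in MPP1 and 16.3, 11.4 and 17.3 CPM in HSC. The gate difference was -1.17 in KO minus Het, with a 95% interval of -1.77 to -0.57 and an unadjusted edgeR p of 0.00039. Gdap1 and Pdzrn3 had no count in any HSC Het library and at most 1.62 CPM in any KO library of either gate, so their fitted folds carry no size.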

How the data were processed

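RNA was measured by rRNA-depleted stranded sequencing with paired reads of 50 bp. The deposited values are raw, unscaled counts per gene. The submitters' processing notes list TopHat2 2.0.9 with Bowtie 1.0.0, featureCounts, Trimmomatic 0.33, FastQC, R 3.1.2 and edgeR, and the build mm9. A deposited table of normalized signal by the authors, whose scaling is not given in the sources used here, was used for 1 alternative.

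Counts were joined by gene symbol, since the order of genes differs in a single file. In R 4.3.3, edgeR 4.0.16 scaled libraries by TMM, kept 21456 genes by filterByExpr (least count 10) and fitted 9 group means to 24 libraries (15 residual degrees of freedom) with robust quasi-likelihood. Tests were two-sided, adjusted by Benjamini-Hochberg over all genes at 0.05. SEs are approximate, the log2 difference divided by the root of its F statistic. Log2 CPM used a prior count of 2. Alternatives used limma 3.58.1 and DESeq2 1.42.0. The steps were tested on simulated data whose spread between libraries was capped below the common dispersion of these data, 0.466. That test therefore does not measure how many differences could be found here.

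Members and gene lists were chosen with earlier results of these data known. In KO the rule named all gate genes, passing genes by size, and up to 2 members of each list by smallest p where none passed, with the 5 smallest adjusted p for KO minus Het, and in Het the passing genes, of which 1 is not reported here. Other genes were named for their known role or after their values had been seen. mm9 positions come from GENCODE, in which 19712 of 21456 symbols were found. Depth limits precision, and errors cover the spread between pools.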

Additional observations from a re-analysis of the deposited data

Results flagged for a closer look

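Rabggta, the alpha subunit of the Rab geranylgeranyl transferase, was picked out because its MPP1 libraries lay below HSC in KO and above HSC in Het, each without overlap. It had 16.0, 16.6 and 21.5 CPM in MPP1 KO and 22.4, 27.5 and 21.7 CPM in HSC KO. In Het it had 25.8, 32.1 and 24.4 CPM in MPP1 and 15.7, 13.4 and 15.9 CPM in HSC. The log2 difference of MPP1 from HSC was -0.40 ± 0.22 in KO and 0.88 ± 0.23 in Het. KO minus Het was -1.28, with a 95% interval of -1.93 to -0.63, an unadjusted edgeR p of 0.000375 and an adjusted p of 0.988, so the difference did not pass the test over all genes.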

How the results depend on the processing

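The counts of 0 in KO and for KO minus Het held under RLE scaling, both other filters, limma on log2 CPM and on the authors' matrix, the compared libraries alone, the replicate block in 24 libraries, and in every fit without a single library or without library 1 of both gates. DESeq2 called 11 in KO, 221 in Het and 23 for KO minus Het. The Het count of 3 was 11 with no filter, 5 with at least 1 CPM in at least 3 libraries, 9 with limma, 84 in the authors' matrix, 0 with the Het libraries alone and 19 without library 1 of both gates, and ran from 0 to 101 without single libraries. The numbers met the criterion of a correlation over 0.1 for every pair in KO at genes of at least 1 CPM (0.523, 0.582 and 0.166) and of at least 5 CPM, but not over all genes, and in Het at none of these. Each MPP1 KO library correlated best with the HSC KO library of its own number, for library 4 at 0.377 against 0.045 at 5 CPM and 0.0519 against 0.0518 over all genes. The main fit stayed unpaired. With the replicate block the Het count was 341 in 24 libraries. With the replicate block in the libraries of each comparison alone, chosen after seeing the data, 152 of 16827 genes were called in KO. Of these, 124 were higher and 28 lower. In Het 503 of 17909 were called, and for KO minus Het 29 of 19466. Of the 29, 28 were below 0 and 12 were among the S phase and G2 and mitosis genes. Of the 152, 52 were histone genes and 44 were among the 137 S phase and G2 and mitosis genes. Among named genes, log2 differences in KO without single libraries ran from -1.80 to 0.51 for Ly6c2, from -7.27 to 0.0 for Cdkn2b, from -0.76 to 0.14 for Cxcr2, from -5.69 to 1.91 for Vpreb3 and from -0.27 to 0.076 for Mysm1. The positive or 0 values came without HSC KO library 1 for Ly6c2, without MPP1 KO library 1 for Mysm1 and without HSC KO library 2_3 for the others. Ly6c2 was 0.97 without library 1 of both gates. Cdkn2b had counts in no other KO library of these gates than HSC KO library 2_3, so its fitted values carry no size. The causes were not tested. Genes under about 1 CPM are limited by depth.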
